A study of Drosophila melanogaster with 24 samples.

Results

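Wild type larvae of the fruit fly Drosophila melanogaster were compared with wild type embryos, in 8 samples chosen by their sample labels out of 24 in the series. The 4 embryo samples held animals of late stage 17, whose tracheae were filling with air just before hatching. The 4 larva samples held young larvae, 2 of them aged 29 to 44 h and 2 aged 30 to 45 h after egg laying. The labels give no age in hours for the wild type embryos, and the study matched their stage to that of its mutant embryos. All 8 samples carry no Manf mutation or transgene, are of the w- background that the whole study shares, and are total RNA of whole animals collected from apple juice agar plates with yeast paste. Each was hybridised to an Agilent fruit fly array as part of a study of Manf, a secreted survival factor of the endoplasmic reticulum. Larvae all carry the dye Cy3, as do 3 of the embryo samples, and embryo sample 1 carries Cy5. The study hybridised differently labelled RNA, so that samples of different dyes may have shared an array, and shared arrays were not entered in the models. Nothing in the labels says how many animals a sample pooled, and p values measure only the spread between these samples, which may in part be technical.

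Hatching takes a fly from a closed egg, in which patterning, the nervous system and the first cuticle have just been finished, to a feeding animal that grows fast between moults. The larva secretes digestive enzymes and a chitinous lining in the gut, its tissues enter rounds of DNA synthesis that mostly lack cell division, and a pulse of the steroid hormone ecdysone precedes each moult, when a new cuticle is made under the old. RNA of whole animals mixes all tissues, so that fewer cells of a type and less RNA per cell cannot be told apart.

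Values are log2 intensities as deposited, normalised so that every sample has nearly the same distribution, with medians of 9.15 in all 8 samples. The lowest value of a sample was at most 6.10 and the highest 14.75 to 15.52, and a difference of 1 is a doubling of intensity. Differences between levels near either end can be compressed, and a level under 7.20 falls in the dimmest 30 percent of probes. Correlations were 0.959 to 0.989 between embryo samples, 0.972 to 0.994 between larva samples and 0.92 to 0.946 between an embryo and a larva sample. The first principal component, with 57.7% of the variance, separated embryos from larvae, and the second, with 23.5%, separated the samples numbered 1 and 2 from those numbered 63 to 83 in both stages. What these low and high number series stand for, with 2 embryo and 2 larva samples each, is not given by the labels. In larvae the low series holds the samples aged 29 to 44 h and the high series those aged 30 to 45 h. Labelled age and series therefore cannot be told apart in larvae. Differences were also computed within each series.

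Marker genes of the third instar, of adult tissues and of the nervous system were read in both stages. They are not a test of the embryo and larva labels. The planned larval midgut markers, the Jon genes, Amy-p and the Mal-A genes, are given with food digestion below, where they did not move one way. The third instar genes Sgs3 and Sgs5, which encode salivary glue, and Lsp2, which encodes a larval serum protein, were at 6.89, 6.73 and 7.02 in embryos and at 6.89, 6.94 and 6.86 in larvae, all in the dimmest 30 percent. Other members of the same list were not all dim: Sgs7 and Sgs8 were at 8.59 and 8.16 in embryos and fell, and ng1 rose by 3.04. Of 34 genes of the adult ovary and of seminal fluid, 24 were below 7.20 in each stage, with the yolk protein gene Yp1 at 6.97 in embryos and 6.77 in larvae. Cp15, a chorion gene, was the 1 member that rose, from 6.81 to 8.90, and Vm34Ca, a vitelline membrane gene, the 1 that fell. The neuronal marker elav was at 11.82 in embryos and 12.22 in larvae, and the glial marker repo at 11.91 to 12.11 in embryos and 11.28 to 11.65 in larvae.

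Of 45220 probes 6949 differed between larvae and embryos at an adjusted p below 0.01 (limma, Benjamini-Hochberg), which is 15.4% of all probes. Of these, 3685 probes (8.15%) were higher in larvae and 3264 (7.22%) were lower, and 4695 changed at least 2-fold. Every one of the 6949 had the same sign in both number series and had 4 larvae and 4 embryos that did not overlap. The probes were called from these same 8 samples, which makes both likely, so that neither is an independent check. With each gene represented by its probe of highest mean, 2789 of 12799 genes (21.8%) changed. Of the genes 1554 (12.1%) rose and 1235 (9.65%) fell, and in 37.1% of all genes the larvae and embryos did not overlap. The median log2 difference over all genes was -0.001. The counts for gene lists given below are to be read against these shares. Among genes that changed at least 16-fold, 67 rose and 32 fell.

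The largest increase was that of CG3598, which was at 6.94 to 7.32 in embryos and at 15.12, 15.11, 15.06 and 15.22 in larvae 1, 2, 63 and 65. It thus went from the dim end of the scale to near its top, a 259-fold difference (log2 difference 8.02 ± 0.12, SE, adjusted p = 1.52e-08) that may be understated, since 2 larvae were at the highest value of their samples. CG34202 followed, with embryos at 6.48 to 6.96 and larvae at 14.00, 14.93, 15.06 and 15.06, and CG14423 with embryos at 6.71 to 6.82 and larvae at 14.41 to 14.84. The 15 largest increases all belonged to genes known only by a CG number, and the other twelve places were taken by CG14420, CG13983, CG15225, CG4116, CG13438, CG14421, CG11300, CG15226, CG14418, CG34201, CG32793 and CG14424, with log2 differences of 6.84 to 7.74. In the embryo 14 of the 15 had a mean of at most 7.66 and CG14418 was at 7.94, and in the larva all lay between 13.80 and 15.13. Folds of this size rest on embryo levels near the floor of the scale and on larval levels near its top, so that their order says little.

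Many of these genes are neighbours. In the RefSeq gene order of Release 6, the 18 protein coding genes on the X chromosome from CG14416 to CG4116 were all measured, and 13 of them rose while 0 fell. The risers included 10 that changed at least 16-fold, among them CG14417 at 6.04 ± 0.25 and CG14422 at 4.50 ± 0.11 on the log2 scale (SE). Genes that did not pass the test lay between them: CG3592 was at 7.01 in embryos and 6.98 in larvae, next to CG3598, and rst, which encodes the adhesion protein Roughest, was at 11.55 in both. A second stretch on chromosome arm 2R, from CG13438 to CG15225, held 15 genes of which 7 were measured, and 5 of these rose, with CG13443 at 3.60 ± 0.29 as the smallest rise. CG15226, the name of a further riser, is now listed as an older name of 3 genes of that stretch. Over all 12186 genes that could be placed, 19 of 65 genes that rose at least 16-fold (29.2%) had another such gene as the next measured gene, against 1.01% of all genes with such a neighbour. The same held for 8 of 32 genes that fell at least 16-fold (25%, against 0.525%). Both stretches were chosen after their values were seen, and neighbouring genes with similar sequence can share signal on an array.

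**Figure D1:**
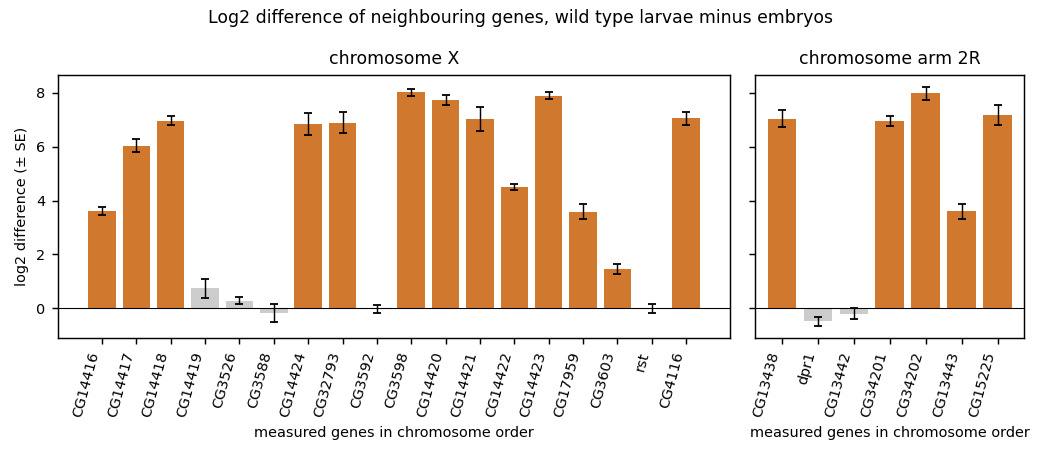
Log2 difference, larvae minus embryos, of the measured genes in 2 stretches of the X chromosome and of chromosome arm 2R, in chromosome order, with orange bars for genes that passed the test, grey for those that did not, and SE as error bars. On the X chromosome 13 of 18 bars are orange, with gaps at CG14419 to CG3588, CG3592 and rst.

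The largest decrease was that of CG13738, at 15.19, 15.21, 15.09 and 14.75 in the embryos and at 7.54, 7.63, 7.38 and 7.17 in the larvae (log2 difference -7.63 ± 0.15, adjusted p = 5.53e-08). All 4 embryos were at the highest value of their samples, so that 198-fold may understate the change. EAChm, a gene named for an enhancer of the acetyltransferase Chameau, had embryos at 13.05 to 14.75 and larvae at 6.81 to 7.11. The cuticle protein gene Cpr92F was at 13.38, 13.57, 15.09 and 14.06 in embryos and at 6.94, 7.53, 7.29 and 7.11 in larvae, which is 112-fold lower in larvae. Other genes among the 15 largest decreases were CG33160, nur, CG4000, CG14565, CG30413, Try29F, CG14756, CG8736, CG6277, CG13159, CG3106 and CG14568, with log2 differences of -6.69 to -4.90. In CG14568 and CG14565 larvae varied far more than in the others, with SDs of 2.24 and 1.45.

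**Figure D2:**
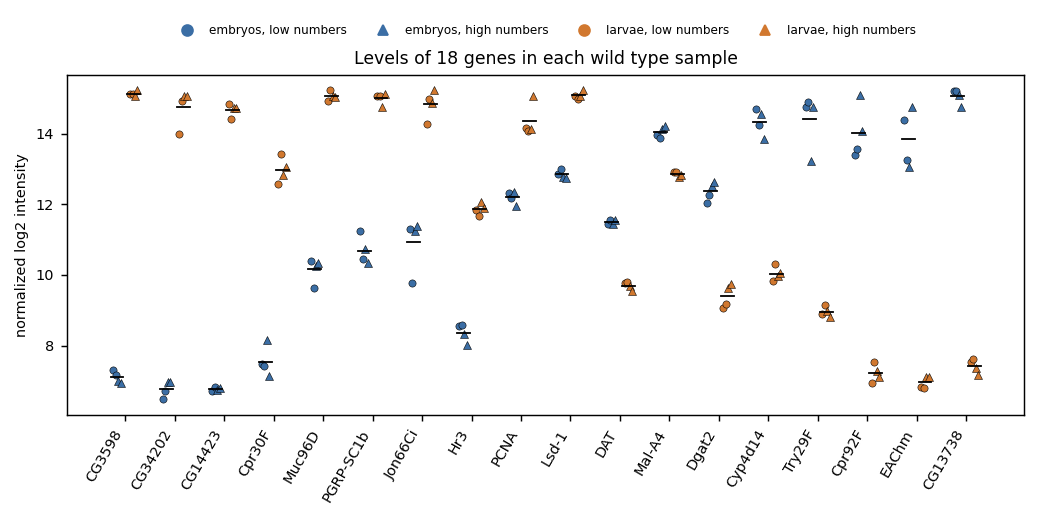
Normalised log2 intensity of 18 genes in each of the 8 wild type samples, with embryos in blue and larvae in orange, circles for samples 1 and 2, triangles for samples 63 to 83, and a line at the mean of each group. In each gene the 4 larvae lie apart from the 4 embryos, from CG3598 at the left, at about 7 in embryos and 15 in larvae, to CG13738 at the right, which runs the other way.

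Genes of food digestion did not move one way. Of 32 trypsin and Jonah protease genes, which encode serine proteases of the gut, 2 rose and 5 fell. That is 21.9% changed, near the 21.8% of all genes. The median log2 difference was -0.23 and the median level in embryos 13.97, near the upper end of the scale. Jon66Ci was at 11.31, 9.77, 11.23 and 11.38 in embryos and at 14.26, 14.98, 14.86 and 15.22 in larvae, a log2 difference of 3.91 ± 0.38 (adjusted p = 0.000142). Jon65Aii rose by 2.90 ± 0.14. Try29F, a trypsin gene, ran the opposite way, at 14.75, 14.90, 13.23 and 14.75 in embryos and at 8.82 to 9.16 in larvae. The gut trypsins lambdaTry and kappaTry fell from 13.63 to 12.12 and from 13.97 to 12.19. Probes of these families can bind transcripts of close paralogs, so that single members are uncertain.

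Among 20 glycosidase genes 2 rose and 4 fell. The 4 that fell were the maltase genes Mal-A1, Mal-A3, Mal-A4 and Mal-A5, by 0.82 to 1.23 on the log2 scale, and Mal-A4 was at 13.87 to 14.20 in embryos and at 12.76 to 12.91 in larvae. The risers were tobi, an alpha-glucosidase gene, with 1.74 ± 0.12, and LManIII, an alpha-mannosidase gene, with 1.41 ± 0.28. The amylase gene Amy-p was at 14.45, 12.67, 14.16 and 11.97 in embryos and at 15.24, 14.13, 12.56 and 12.23 in larvae, a spread within each stage far wider than the difference of 0.23 ± 0.78 (adjusted p = 0.877). Of 14 transporter genes for sugars and amino acids the 2 that changed fell: slif, the amino acid transporter Slimfast, by 1.46, and Glut1, a glucose transporter gene, by 0.94. In 15 genes of sterol and fat uptake, 3 Npc2 genes, whose products bind sterols, rose: Npc2c by 2.10, Npc2g by 1.25 and Npc2h by 0.90. Npc2d fell by 1.47, from 12.83 to 13.65 in embryos to 11.56 to 11.94 in larvae, and mag, which encodes a gut lipase, fell by 1.32.

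The list of mucin, peritrophin and obstructor genes includes genes of the lining between food and gut cells, and it also went both ways. Of 31 members 7 rose (22.6%, against 12.1% of all genes) and 3 fell (9.68%, against 9.65%). In all 32.3% changed, against 21.8% of all genes, 30% of the glycosidase genes and 33.3% of those of sterol and fat uptake. Muc96D was at 10.40, 9.63, 10.25 and 10.35 in embryos and at 14.93, 15.22, 15.06 and 15.04 in larvae, a 30.0-fold rise (4.90 ± 0.18, adjusted p = 1.46e-06). Muc68Ca rose from 8.56 to 12.95, Mur89F from 6.78 to 10.49 and Peritrophin-15b from 13.36 to 15.05. Muc30E, Muc55B and Muc4B fell by 2.23, 1.68 and 1.55. Of 172 odorant, gustatory and ionotropic receptor genes, 0 rose and 6 fell (3.49%), and 104 were below 7.20 in embryos. Those that fell include Or19a, by 1.51, and the co-receptors Ir25a and Ir76b, by 1.24 and 1.00. The odorant binding protein genes Obp56a and Obp47a rose by 2.35 and 1.73, among 50 of which 3 rose and 2 fell. That is 10% changed, against 21.8% of all genes.

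Cuticle protein genes fell more often than all genes did and rose less often. Of 90 genes of the Cpr and larval cuticle families, which encode chitin binding structural proteins, 8 rose (8.89%, against 12.1% of all genes) and 20 fell (22.2%, against 9.65%), with a median of -0.29. Cpr30F was at 7.14 to 8.16 in embryos and at 12.56 to 13.41 in larvae, a 42.8-fold rise (5.42 ± 0.25, adjusted p = 4.85e-06). Lcp65Ad rose by 3.66, Cpr47Ed by 3.40 and Cpr5C by 2.44. On the other side stood Cpr92F, described above, and Acp65Aa, which was at 11.29 to 11.90 in embryos and at 6.94 to 7.49 in larvae (-4.54 ± 0.18). Its name refers to adult cuticle, and its level in these embryos was well above the dim range. Cpr76Ba and Cpr76Bb fell by 4.42 and 4.29. Of 25 Tweedle genes, another cuticle family, 2 rose, TwdlS by 2.98 and TwdlR by 2.04, and Twdlalpha fell by 1.44. In all 12% of them changed, against 21.8% of all genes.

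Other families of cuticle forming cells had more members that rose than fell. Of 24 Osiris genes, a family expressed in epithelia that secrete cuticle, 6 rose (25%, against 12.1% of all genes) and 0 fell, and the median log2 difference was 1.81. Without embryo 83 the median was 0.70. Osi9 was at 10.08, 10.72, 11.45 and 7.94 in embryos and at 12.76 to 13.91 in larvae (3.38 ± 0.68, adjusted p = 0.00662), and Osi16 rose by 3.00 and Osi24 by 2.80. Other Osiris genes with log2 differences of 1.81 to 2.70 did not pass the test, among them Osi6, Osi20 and Osi19. The median for the family was 0.87 in the low and 1.87 in the high number series. Of 11 genes of the zona pellucida domain family, whose products sit in the apical matrix that shapes the cuticle, 4 rose and 0 fell. These were neo, dyl, dy and tyn, for Neyo, Dusky-like, Dusky and Trynity. Neo was at 11.33, 11.04, 9.91 and 9.84 in embryos and at 14.77, 14.02, 14.19 and 14.13 in larvae, a 13.4-fold rise (3.75 ± 0.36), and all 10 of its probes passed. The chitinase genes Cht10, Cht4 and Cht9 rose by 2.56, 2.45 and 1.82, while the chitinase gene Cht5 fell by 2.16 and Chs2, the chitin synthase gene of the gut, fell by 0.71. Cht10 was at 11.95 to 12.62 in embryos and had a larval mean of 14.74.

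In the tanning pathway 2 genes fell. Ebony (e), which joins dopamine to beta-alanine for pale cuticle, was at 12.27, 12.39, 10.98 and 10.76 in embryos and at 8.57, 9.54, 8.31 and 8.44 in larvae, a 7.38-fold fall (-2.88 ± 0.44, adjusted p = 0.00156). The yellow family gene yellow-d2 fell by 2.58, and the other 18 of 20 genes of tanning and pigment did not pass. Tyrosine hydroxylase, ple, was at 11.67, 12.27, 10.29 and 10.82 in embryos and at 11.80 to 11.96 in larvae. Dopa decarboxylase, Ddc, was at 12.20 to 13.18 in embryos and at 11.56 to 12.22 in larvae (-0.88 ± 0.26, adjusted p = 0.0362), and with number series entered as a block it passed (adjusted p = 0.00768). The epidermal chitin synthase gene kkv was at 11.93 to 12.82 in embryos and at 11.76 to 12.83 in larvae, and in both stages it followed the number series.

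The list with the highest share of members that changed was that of DNA replication. Of 44 measured members 38 rose and 0 fell, which is 86.4%, against 12.1% of all genes that rose, and the median log2 difference was 1.77 (1.87 in the low and 1.77 in the high number series). All 44 members were higher in larvae. With all 24 samples in one model 15 passed. PCNA, the sliding clamp of the DNA polymerases, was at 12.33, 12.18, 12.35 and 11.95 in embryos and at 14.15, 14.07, 14.12 and 15.05 in larvae, a 4.43-fold rise (2.15 ± 0.23, adjusted p = 0.000241). PolE1, the catalytic subunit of polymerase epsilon, was at 8.99 to 9.42 in embryos and at 11.55 to 11.87 in larvae, a 5.55-fold rise. DNAlig1, the ligase that joins Okazaki fragments, rose 5.11-fold, from 9.43 to 9.94 in embryos to 11.80 to 12.16 in larvae.

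Genes that rose were found at each step of replication. All 4 measured subunits of the origin recognition complex rose, by 1.68 to 2.13, as did all 5 measured subunits of the MCM helicase, by 1.27 to 2.22. The 4 subunits of the GINS complex, which activates that helicase, rose by 1.44 to 2.25, with Sld5 as the highest. Of 7 polymerase and primase subunits 6 rose, with Prim2 at 2.24, and PolD3 was 0.95 higher and did not pass. RnrL and dUTPase, enzymes of nucleotide supply, rose by 1.93 and 1.99, and CycE, the cyclin of S phase entry, by 1.52. The transcription factor genes E2f1 and Dp, which drive S phase genes, were 0.36 and 0.11 higher at embryo levels of about 13, and did not pass.

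Fewer genes of mitosis changed. Of 39 members 15 rose (38.5%, against 12.1% of all genes) and 0 fell, with a median of 0.66. The risers numbered 7 without larva 1, 9 without embryo 2, embryo 82 or larva 2, and 7 in the high number series alone. All 5 condensin subunits in the list rose, and SMC2 was at 9.09 to 10.13 in embryos and at 10.79 to 11.64 in larvae. Det, the fly Survivin, rose by 1.68, aurB, its Aurora kinase partner, by 1.38, and cid, the centromeric histone, by 1.10. The mitotic regulators CycB and fzy were 0.75 and 0.87 lower in larvae and did not pass, and CycB was at 12.01, 10.66, 10.95 and 10.61 in embryos and at 9.50, 10.70, 10.42 and 10.59 in larvae. Of 18 histone genes His2B:CG33868 rose and His4:CG33907 fell. The array cannot tell their repeated copies apart.

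**Figure D3:**
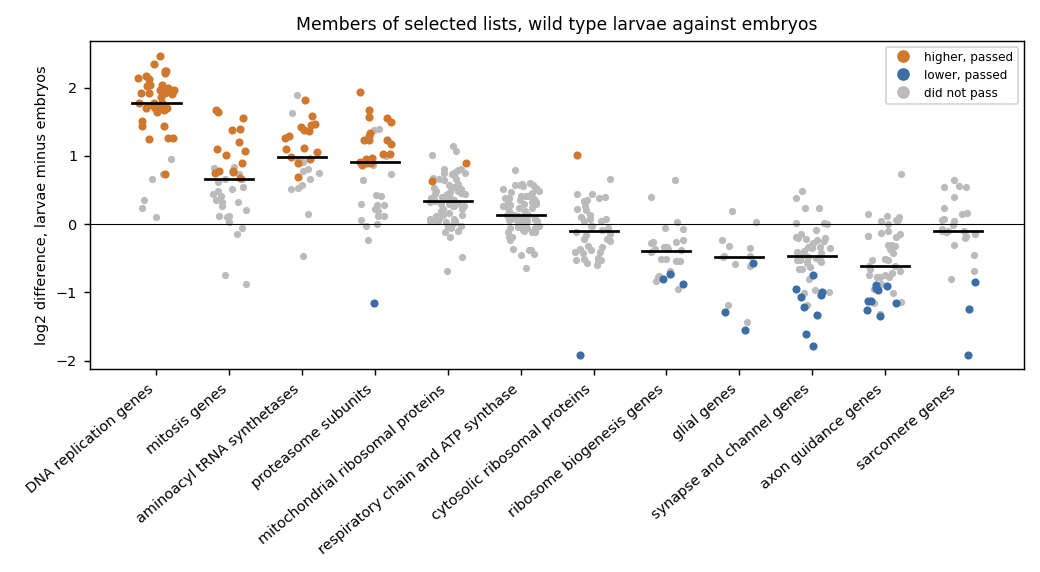
Log2 difference, larvae minus embryos, of each measured member of 12 gene lists, in orange or blue where the gene passed the test and grey where it did not, with a black line at the median of the list. DNA replication genes lie mostly above 1, with a median of 1.77, while the nervous system lists lie mostly below 0.

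The proteasome, which degrades proteins, and the enzymes that charge tRNA followed in the share of members that rose. Of 42 proteasome genes 21 rose and 1 fell (52.4% changed), with a median of 0.90. Without larva 63 or larva 65 the risers numbered 12, without embryo 2 or larva 1 they numbered 13, and in the high number series alone 11. Among the 27 members whose names lack the suffix R or T, which marks the variant copies, 20 rose and 0 fell, and all were higher in larvae, by 0.65 to 1.94. Prosalpha3, a subunit of the core particle, was at 12.86 to 13.31 in embryos and at 14.93 to 15.11 in larvae (1.94 ± 0.13), and Rpn2, of the regulatory particle, rose by 1.67. Of the 15 variant copies Prosalpha1R rose by 1.57 and Prosbeta2R2 fell by 1.15. Of 29 aminoacyl tRNA synthetase genes 16 rose and 0 fell, with a median of 0.98. The risers numbered 12 without larva 63 or larva 65, and 3 with all 24 samples in one model. The 16 include 11 of 14 genes of the mitochondrial enzymes, such as GluRS-m with 1.82 and ProRS-m with 1.58. Of the other enzymes 5 of 15 rose, such as AlaRS with 1.47.

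Few ribosome genes passed the test. Of 42 cytosolic ribosomal protein genes 1 rose and 1 fell, and the median was -0.09, at -0.50 in the low and 0.40 in the high number series. The 2 were paralogs of other subunit genes, RpS19b with a rise of 1.01 and RpS5b with a fall of 1.91, from 13.95 to 14.85 in embryos to 12.31 to 12.53 in larvae. Of 28 nucleolar ribosome assembly genes 0 rose and 3 fell, among them Polr1B, a subunit of RNA polymerase I, by 0.87. Of 72 mitochondrial ribosomal protein genes 2 rose, mRpL11 and mRpL15, and 63 were higher in larvae, while with number series entered as a block 13 rose. The respiratory chain with 78 genes, glycolysis with 14 and the tricarboxylic acid cycle with 16 had 0 calls (limma), with medians of 0.13, 0.35 and 0.15. At an unadjusted p below 0.05, 8, 6 and 2 of their genes differed. Many of these genes lie near the top of the scale, where differences can be compressed: the median embryo level was 14.32 for the respiratory chain and 14.30 for glycolysis. In embryo 83 the median of the cytosolic ribosomal, respiratory chain and tricarboxylic acid cycle lists was 14.75, the highest value of that sample. The cytosolic ribosomal list was at 14.48, 14.95 and 12.84 in embryos 1, 2 and 82. Few calls in these lists therefore do not show that levels were unchanged.

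**Figure D4:**
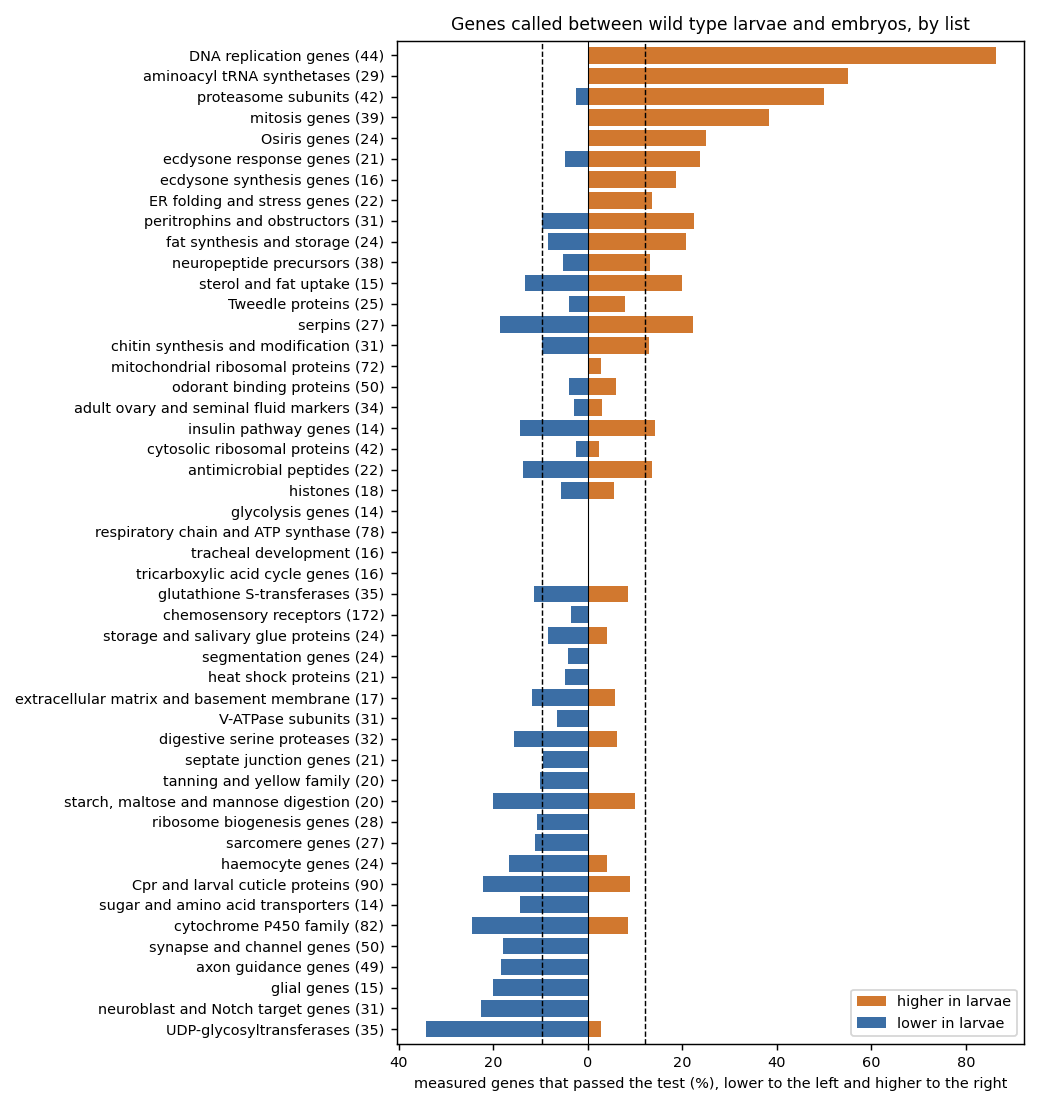
Share of the measured genes of 48 lists with at least 14 members that passed the test, with genes higher in larvae to the right in orange and lower to the left in blue; the number of members stands in brackets and the dashed lines mark the shares over all genes, 12.1% and 9.65%. DNA replication, tRNA synthetase and proteasome genes lead on the right, and UDP-glycosyltransferases, at 34.3%, and cytochrome P450 genes, at 24.4%, have the largest shares on the left.

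In the lists of the nervous system most members were lower in larvae, and apart from neuropeptide genes 0 members rose. Of 50 genes of synapses and ion channels 9 fell (18%, against 9.65% of all genes) and 0 rose. Of all genes 21.8% were called either way. The median was -0.46, and 43 of the 50 were lower in larvae. With all 24 samples in one model 0 fell. DAT, the dopamine transporter, was at 11.43, 11.54, 11.45 and 11.55 in embryos and at 9.77, 9.81, 9.68 and 9.54 in larvae, a 3.47-fold fall (-1.79 ± 0.10, adjusted p = 1.11e-05). GluRIIA, a glutamate receptor of the neuromuscular junction, had a mean of 13.27 in embryos and 11.94 in larvae. The potassium channel gene Shab fell by 1.61, with 1 of its 2 probes called. All 9 nicotinic acetylcholine receptor subunits were lower in larvae, by 0.14 to 1.19, and 3 of them passed. The neuronal marker elav did not pass: it was at 11.30, 11.14, 12.44 and 12.42 in embryos and at 11.64, 11.63, 12.87 and 12.72 in larvae, and its level followed the number series. With the series as a block its difference of 0.39 passed (adjusted p = 0.00884).

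Of 49 axon guidance genes 9 fell (18.4%, against 9.65% of all genes) and 0 rose, with a median of -0.61. The count rested on single samples: 2 fell without embryo 2 or embryo 82, 3 without larva 63 or larva 65, 5 without embryo 1 and 6 without larva 2, while 21 fell with number series entered as a block and 0 in the 24-sample model. Of 21 beat and side genes, which encode adhesion proteins of motor axons and their targets, 19 were lower in larvae and 5 passed, among them beat-Vc with 1.35 and beat-IIa with 1.15 on the log2 scale. Comm, the sorting receptor that lets axons cross the midline, fell by 1.25, and robo1, the midline receptor that it controls, by 0.90. Of 31 neural precursor genes 7 fell (22.6%, against 9.65% of all genes) and 0 rose, or 4 fell without larva 1. The Snail factor gene sna was at 10.83 to 11.50 in embryos and at 9.26 to 9.58 in larvae (-1.66 ± 0.16), and pdm2 and tap fell by 1.22 and 1.20. Among 15 glial genes 3 fell (20%, against 9.65% of all genes) and 0 rose. These were zyd, an ion exchanger of cortex glia, with -1.55, alrm, a marker of astrocytes, with -1.29, and repo, the factor that defines glia, with -0.57 ± 0.12 (adjusted p = 0.00753).

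Neuropeptide genes went both ways, with 5 of 38 up and 2 down (18.4% changed, against 21.8% of all genes). Nplp4 was at 12.16, 11.01, 11.94 and 11.90 in embryos and at 14.64 to 15.36 in larvae, a 9.17-fold rise (3.20 ± 0.26, adjusted p = 6.31e-05). The insulin-like peptide gene Ilp5 was at 6.93 to 7.58 in embryos and at 9.36 to 9.88 in larvae, and Ilp2 rose by 1.07. Ilp8, a relaxin-like peptide gene of growing tissues, was at 13.61, 12.14, 12.12 and 11.26 in embryos and at 8.63 to 10.05 in larvae (-3.12 ± 0.50), and Burs, a subunit of the tanning hormone bursicon, fell by 1.22. Further down the insulin pathway InR, the receptor, was at 11.74 and 11.87 (0.13 ± 0.21), while S6k, the kinase that promotes growth, fell by 1.22 and REPTOR, a transcription factor under TOR control, by 1.10. Of 5 homeotic genes and their partners tsh fell by 0.83, and of 24 segmentation genes odd fell by 0.73.

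Muscle and barrier genes fell in shares near that of all genes, 9.65%. Of 27 sarcomere genes 3 fell (11.1%) and 0 rose, with a median of -0.10. These were TpnC41C, a troponin C gene, with -1.91, Act79B, an actin gene, with -1.24, and tmod, which caps thin filaments, with -0.85. The median level of the sarcomere list in embryo 83 was 14.75, the highest value of that sample, so that differences can be compressed. Of 21 septate junction genes scrib and vari fell (9.52%), by 1.68 and 1.06, and of 16 tracheal genes 0 passed (limma), against 3 at an unadjusted p below 0.05, with the 2 brightest, wdp and sty, at log2 differences of -0.27 and 0.25.

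Genes of fat handling changed in both directions. Lsd-1, a perilipin that coats lipid droplets, was at 12.84 ± 0.11 (SD, n = 4) in embryos and at 15.07, 14.99, 15.06 and 15.22 in larvae, a 4.74-fold rise (2.24 ± 0.11, adjusted p = 5.06e-06) that may be understated, since larvae 63 and 65 were at the highest value of their samples. Mtp, which loads lipid onto lipoproteins, rose by 1.78, FASN2, a fatty acid synthase gene, by 1.71, and ATPCL, which supplies acetyl groups to it, by 1.48. Of the 3 ATPCL probes 1 passed. Dgat2, an acyltransferase of triglyceride synthesis, was at 12.04, 12.25, 12.52 and 12.64 in embryos and at 9.06, 9.19, 9.64 and 9.73 in larvae, a 7.78-fold fall (-2.96 ± 0.20). Of the 24 genes of this list 5 rose and 2 fell, the other decrease being that of the lipoprotein receptor gene LpR1, by 0.82. In 24 storage and glue protein genes ng1, of the new glue genes, rose by 3.04, and Sgs7 and Sgs8 fell by 1.79 and 1.33 from embryo levels of 8.59 and 8.16.

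In 2 of 3 detoxification families a larger share of genes fell than among all genes (9.65%). Of 82 cytochrome P450 genes 20 fell and 7 rose (32.9% changed), and of 35 UDP-glycosyltransferase genes 12 fell and 1 rose (37.1%), with medians of -0.23 and -0.60. The share that fell was 24.4% and 34.3%. Cyp4d14 was at 13.85 to 14.70 in embryos and at 9.83 to 10.30 in larvae, a 19.7-fold fall (-4.30 ± 0.20, adjusted p = 4.47e-06), and Cyp309a2 fell by 4.17. Cyp49a1 and Cyp310a1 rose by 2.20 and 2.11. Of the glycosyltransferases Ugt35D1 fell by 3.44, to 6.69 in larvae, and Ugt303A1 by 2.94. Of 35 glutathione S-transferase genes 3 rose and 4 fell (20%, against 21.8% of all genes), with a median of 0.13. GstD5 was at 14.44, 12.23, 12.06 and 11.00 in embryos and at 7.44 to 7.70 in larvae, so that embryos differed among themselves by over 3 on the log2 scale, and GstZ1 and GstT2 rose by 1.93 and 1.58.

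Among genes of defence the peptidoglycan recognition proteins held the largest rise. PGRP-SC1b, an amidase of the gut that degrades peptidoglycan, was at 11.23, 10.46, 10.72 and 10.33 in embryos and at 15.07, 15.06, 14.76 and 15.11 in larvae, a 19.9-fold rise (4.31 ± 0.20, adjusted p = 4.7e-06). Its near relatives PGRP-SC1a and PGRP-SC2 rose by 3.62 and 2.56, and PGRP-SC1a and PGRP-SC1b are so alike that their signals may not be separate. PGRP-LB, another amidase, fell 5.68-fold, from 12.71 to 13.40 in embryos to 10.25 to 10.74 in larvae, although only 2 of its 4 probes passed. Of 10 genes of this family 4 rose and 1 fell. Of 22 antimicrobial peptide genes 3 rose and 3 fell (27.3% changed, against 21.8% of all genes). DptB rose by 2.29 and Mtk by 1.64, whereas the Bomanin gene BomBc3, at 11.13 to 13.21 in embryos and 7.84 to 9.38 in larvae, fell by 3.43. Drosomycin, Drs, was at 14.99, 12.35, 11.56 and 11.16 in embryos and at 12.27, 12.66, 10.61 and 10.82 in larvae (-0.92 ± 0.85, adjusted p = 0.506).

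Of 27 serpin genes, which encode inhibitors of serine proteases, 6 rose and 5 fell. Spn88Eb rose by 2.43 and Spn100A by 2.31, and Spn43Aa and Spn43Ad fell by 3.60 and 2.80. Of 5 Turandot genes, which encode secreted stress proteins, 3 fell, and all 5 were in the dimmest 30 percent in larvae. Of 24 blood cell genes 1 rose and 4 fell, but the falls numbered 0 to 2 with any 1 sample left out: 0 without larva 1, larva 2 or larva 63, 1 without embryo 2, embryo 82 or larva 65 and 2 without embryo 1 or embryo 83. With no sample left out 20.8% of the blood cell genes changed, against 21.8% of all genes. The riser was He, the haemocyte antigen Hemese, from 8.61 to 9.50 in embryos to 10.66 to 11.52 in larvae. NimC4, a receptor that takes up dying cells in the embryo, was at 11.30, 10.34, 9.18 and 8.39 in embryos and at 7.01 to 7.23 in larvae (-2.65 ± 0.55), and NimC1 fell by 0.75. The prophenoloxidase gene PPO2 was at 12.56 to 14.12 in embryos and at 12.67 to 13.15 in larvae (adjusted p = 0.745).

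Of 21 genes of the ecdysone response 5 rose (23.8%, against 12.1% of all genes) and 1 fell, with a median of 0.14. Hr3, a nuclear receptor that ecdysone induces, was at 8.56, 8.57, 8.32 and 8.02 in embryos and at 11.85, 11.66, 12.06 and 11.88 in larvae, an 11.3-fold rise (3.49 ± 0.15, adjusted p = 4e-06). The nuclear receptor gene Hr4 was at 7.80 to 9.11 in embryos and at 10.64 to 10.99 in larvae, with 10 of its 11 probes called. ImpE1 and ImpE3, found as ecdysone-inducible genes of imaginal discs, rose by 3.16 and 1.77. Hr38 rose by 1.42, although only 1 of its 6 probes passed. The receptor gene EcR itself was at 9.29, 9.89, 11.00 and 11.30 in embryos and at 9.98, 9.45, 10.79 and 10.73 in larvae (-0.13 ± 0.49, adjusted p = 0.886), again with the number series. Tai, a coactivator of the receptor, fell by 0.86. Of 16 genes of ecdysone synthesis 3 rose (18.8%, against 12.1% of all genes) and 0 fell. These were woc by 1.12, shd, the last hydroxylase, by 0.85, and Start1 by 0.74. For shd 1 of 2 probes passed and for Start1 2 of 4. The risers numbered 1 without embryo 1, larva 1 or larva 2, 4 without embryo 2, and 1 at the mean of the probes of a gene. Spok, of the prothoracic gland, was 0.86 ± 0.21 higher in larvae (adjusted p = 0.0165).

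Manf was at 11.10, 11.28, 11.48 and 11.25 in embryos and at 11.65, 11.59, 13.18 and 13.64 in larvae. Larvae and embryos did not overlap, yet larvae differed by series, and the difference of 1.24 ± 0.45 did not pass (adjusted p = 0.084). It was 0.43 in the low and 2.04 in the high number series. Hsc70-3, the endoplasmic reticulum chaperone BiP, was at 14.39, 14.22, 12.24 and 13.88 in embryos and at 12.97, 13.34, 14.87 and 14.54 in larvae, with a difference of -1.15 in the low and 1.65 in the high number series. Within the low series alone that difference passed the test (adjusted p = 0.00808), in the direction opposite to that of all 8 samples. Of 22 genes of folding in this compartment 3 rose (13.6%, against 12.1% of all genes) and 0 fell. These were Sil1, an exchange factor for BiP, by 1.14, sip3 by 0.82 and Sec61beta, of the translocation channel, by 0.72. The risers numbered 1 without embryo 2 or larva 2 and 5 without embryo 82. Of 21 heat shock protein genes Hsc70-1 fell, by 2.19, and 0 rose. Embryos differed widely here, with list medians of 14.25, 10.56, 12.24 and 10.49 in embryos 1, 2, 82 and 83. The median log2 difference was 0.43, at -0.04 in the low and 0.95 in the high number series, and 0.72 without embryo 1.

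**Figure D5:**
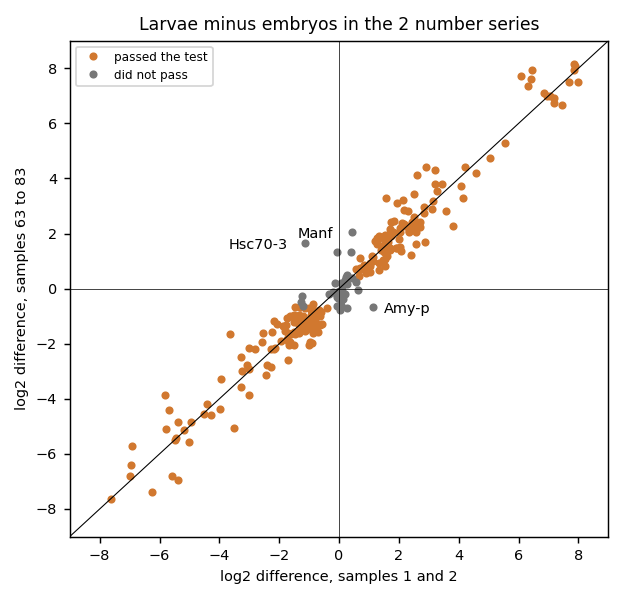
Log2 difference, larvae minus embryos, of 258 genes named by rule, within samples 1 and 2 (x axis) and within samples 63 to 83 (y axis). Points are orange where the gene passed the test over all 8 samples and grey where it did not, with a line of equality. Genes that passed have the same sign on both axes, which the call over the same 8 samples makes likely. Hsc70-3 and Amy-p have opposite signs.

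The same step was measured in Manf mutants, with 4 samples of mz mutant embryos, which lack maternal and zygotic Manf and are 21 to 24 h old, and 4 of mutant larvae of 29 to 50 h, which had maternal Manf and lack zygotic Manf. These 8 samples share none with the wild type and carry the dyes Alexa488 and Cy5. They are not 1 genotype, since mz mutants never hatch, and the embryos fail to fill their tracheae. In them 3866 of 45220 probes (8.55%) differed between larvae and embryos. Of the 6949 wild type probes 6623 (95.3%) had the same sign in mutants, against 78.4% of all probes. Called in both with the same sign were 2766 probes, which is 39.8% of the wild type calls and 71.5% of the mutant calls, and 19 were called with opposite signs. The 15 genes with the largest increases had log2 differences of 6.27 to 7.66 in mutants. DNA replication genes had a median of 1.49 there, with 26 of 44 higher and 0 lower.

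The stage difference itself differed between mutants and wild type for 202 of 45220 probes (0.447%), of which 127 were among the wild type calls. Among the named genes mag was the furthest apart: it fell by 1.32 from embryo to larva in wild type and was 2.63 higher in mutant larvae than in mz mutant embryos (difference 3.95, adjusted p = 0.000716). Spn88Eb rose by 2.43 in wild type and was 0.72 lower in mutant larvae than in mz mutant embryos, a value that did not pass (adjusted p = 0.0872), and the difference was -3.15 (adjusted p = 0.000549). No mutant sample carries Cy3, so that dye and genotype cannot be told apart here.

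The count of calls in the wild type depended on the samples in the model. With all 24 samples in one model 1689 probes passed, and without the overexpressing larvae 69 and 70 7270 did. Within the low and the high number series alone, 6915 and 5801 probes passed. Without embryo 1, so that all samples carried Cy3, 5981 did.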

How the data were processed

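Total RNA of whole embryos and larvae was labelled with Cy3, Cy5 or Alexa488 and hybridised to Agilent fruit fly arrays, and the authors took median spot intensities and preprocessed them with limma. The log2 values were used as deposited by the authors. The background correction and between-array method are not given in the sources used here, and background signal per spot was not used here. Every value column was assigned to a sample through its label, and 0 columns were left unused. Of 45220 probes 29872 carry 1 gene name and 15348 none, and 28743 were matched by identifier to genes of the RefSeq tables. These gave 12799 genes, each represented by its probe of highest mean over the 8 samples.

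Larvae and embryos were compared with lmFit and eBayes of limma 3.58.1 in R 4.3.3 on the 8 wild type samples, with Benjamini-Hochberg adjustment over all probes and a threshold of 0.01, which follows the study's moderated test. The mutant stages were fitted alike, and the difference between both stage differences in 16 samples. No dim probe was removed. The fit was tested on simulated data. Of 100 probes changed by 1 on the log2 scale 28 were found, and of 100 changed by 2, 74, with 0 of the wrong sign. Of the unchanged probes 2 were called. Far fewer probes were changed there than passed in the real data, and no number series was simulated. These rates therefore need not hold for the real data. The number of arrays limits the precision. The methods speak of 3 independent samples per group and the labels list 4.

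Genes were named where they were among the 15 largest called changes each way without overlap, among up to 4 called members each way of 53 lists, or in a short list of textbook genes with Manf. Other names, such as neighbours on a chromosome and further members of replication, mitosis and Osiris lists, were chosen after their values were seen. The lists and the comparison were chosen with earlier results of these data known. Of the lists those of lysozymes, extracellular matrix and V-ATPase genes changed in 1 of 7, 3 of 17 and 2 of 31 members. Alternatives covered scaling, dim probes, samples in the model, number series, blocks, array weights, moderation, thresholds and leaving out each sample.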

Additional observations from a re-analysis of the deposited data

Results flagged for a closer look

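Among the genes named, 396 groups of 4 samples were examined for a single sample far from the other three, and 21 had one, where chance flags about 1 in 20 groups. In embryo 82, CG15226 was at 6.89 against 7.01 to 7.03 in the other embryos, CG8736 at 14.84 against 13.29 to 13.49, Cpr76Bb at 14.82 against 13.84 to 13.91, Npc2g at 14.17 against 13.19 to 13.33, Try29F at 13.23 against 14.75 to 14.90 and alrm at 14.69 against 13.97 to 14.06. In embryo 2, Jon66Ci was at 9.77 against 11.23 to 11.38, Prim2 at 8.26 against 8.77 to 8.85 and TpnC41C at 11.79 against 11.36 to 11.38.

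In larva 1, CG34202 was at 14.00 against 14.93 to 15.06 in the other larvae, Cpr5C at 10.80 against 12.98 to 13.10 and TwdlS at 8.41 against 10.66 to 10.88. In larva 2, CG14565 was at 10.02 against 6.99 to 7.29, ImpE1 at 11.37 against 12.07 to 12.16, Spn100A at 13.58 against 14.09 to 14.13, mRpL15 at 12.51 against 12.90 to 12.98 and wdp at 13.49 against 13.83 to 13.88. In larva 63, Ilp2 was at 12.71 against 12.38 to 12.42 and PGRP-SC1b at 14.76 against 15.06 to 15.11. In larva 65, PCNA was at 15.05 against 14.07 to 14.15 and alrm at 12.74 against 12.93 to 12.95.

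For 7 of the named genes the stage difference itself differed between mutants and wild type (limma, adjusted p below 0.01). Given as the mutant minus the wild type log2 difference, it was higher in mutants for mag by 3.95, for Npc2d by 2.59 and for the gut chitin synthase gene Chs2 by 1.63. It was lower in mutants for Spn88Eb (-3.15), the serine protease gene Ser7 (-2.78), the Turandot gene TotC (-2.31) and the lysozyme gene LysX (-1.77). Genotype and dye differ together between the compared samples and cannot be told apart.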

How the results depend on the processing

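Wild type calls (6949 probes) stayed within 1.5 times under quantile normalization, equal medians, removal of dim probes, other moderation, array weights, either number series alone, 22 samples and a fold limit, and were 5043 to 6247 with 1 sample left out. They came to 1689 in the 24-sample model and 11338 at an adjusted p below 0.05. Mutant calls (3866) came to 1575 with 24 samples, 7354 with 22, 8536 in the high and 0 in the low number series (9849 at an unadjusted p below 0.05), 8445 at the 0.05 threshold and 1905 to 3955 with 1 sample left out. Differences between mutant and wild type stages (202) came to 23 with 24 samples, 310 with 22, 1075 in the high and 0 in the low series (4411 at an unadjusted p below 0.05), 618 at the 0.05 threshold and 93 to 823 with 1 sample left out, the highest without mz mutant embryo sample 1 and the lowest without wild type larva sample 1. Of single genes Hsc70-3 reversed, at -1.15 in the low series.

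Both wild type stages have samples numbered 1 and 2, which share only a number. Deviations from the stage mean correlated at 0.251 to 0.54 within a number series and at -0.284 to -0.602 across series. The deviations of a stage cancel out at every probe, so that the positive and negative values are not separate observations. With the number series as a replicate block 11825 wild type probes and 400 differences between mutant and wild type stages passed, as did 5407 mutant probes, and with the sample number as a random block 10203 wild type probes did.

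Of 258 genes named by rule 198 were taken into the text, and 179 of these were called. All 179 kept their sign in every alternative run, which reuses the samples of the call. Without each sample in turn 140 were called, 117 in both series alone and 160 without embryo 1. With the block 179 were called, 94 in 24 samples and 171 at the mean of their probes. With 1 sample left out, counts of some other lists moved by over 1.5 times, among them falls among starch digestion genes to 2 without embryo 82, larva 1, larva 2 or larva 65, chemosensory receptor falls to 3 without embryo 2 or larva 65, protease falls to 8 without embryo 82, antimicrobial peptide falls to 6 without embryo 1 and 5 without embryo 83, and chitin gene rises to 1 without embryo 83 or larva 1 and to 2 without embryo 1, larva 2, larva 63 or larva 65. Of the named genes that did not pass, Ddc and elav passed with the block. Called genes besides CG3598, CG13738 and Lsd-1 at the highest value of a sample, whose folds may be understated, were CG14421, CG32793 and slif in 2 samples, and Muc96D, Jon66Ci, Prosalpha3, CG34202, Sec61beta, Cpr92F, EAChm, Try29F and others in 1. Signal over background could not be judged, so that dim genes and those at the top of the scale are the least certain. A search of promoter windows for motifs was planned and not run, since no promoter sequences were used here.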
